A study of Mus musculus with 360 samples.

Results

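Single leukemia cells were taken 5 h after a short heat treatment. Of these, 21 had counted RNA of the inducible HSP70 gene pair Hspa1a and Hspa1b (9.46% of the cells that could be assigned). None was counted in the other assigned cells. Both sets were chosen by their measured counts: a cell had to hold at least 5000 UMIs (unique molecular identifiers, 1 per captured RNA molecule), and it was positive where its Hspa1a and Hspa1b counts summed and rounded to at least 1. The levels of these 2 genes are therefore a description, and all other genes and the depth of the cells were compared between positive and negative cells. Of the positive cells, 14 held at least 7 UMIs of the pair and 7 held at most 2.5. The list of other heat shock chaperones differed little between the sets (median log2 ratio -0.05). Relative to the 37 °C control at 5 h, its median log2 ratio was 0.66 in positive and 0.52 in negative cells. Over all measured genes these medians were -0.14 and -0.15.

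C1498 is a mouse acute myeloid leukemia cell line. The heated arm was brought to 45 °C for 10 min and the control arm to 37 °C, and cells were imaged over time and picked one by one before heating (-1 h) or 1, 5, 10 or 15 h after it. The series held 360 cells in all, and the 21 positive cells came from the 45 °C arm at 5 h, its largest group, in which 1 further cell was under 5000 UMIs. Counted by depth, that group had 9 positive and 34 negative cells between 5000 and 20000 UMIs, 3 and 72 up to 30000, 6 and 56 up to 40000, and 3 and 39 above. The 37 °C control at 5 h had 6 cells. Each sample was 1 cell and no label named a culture, so the positive cells, the negative cells and the control cells each counted as 1 sample: no test across cells was made, and the 95% intervals given below cover counting error only.

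HSP70 proteins bind unfolded stretches of other proteins and, with HSP40 partners and nucleotide exchange factors, use ATP to hold and refold them. Heat releases the transcription factor HSF1 from its inhibited state in the cytosol. It then binds repeats of the short element nGAAn upstream of chaperone genes and switches them on within minutes. Hspa1a and Hspa1b are the strictly inducible members of the family and are nearly silent in most unstressed cells, whereas Hspa8 encodes the constitutive HSP70 and Hspa9 the mitochondrial one.

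Hspa1a and Hspa1b lie side by side on mouse chromosome 17, both on the minus strand and each with 1 exon (GENCODE M21 annotation of GRCm38, the assembly also called mm10). Hspa1a spans chr17:34969190-34972156 and Hspa1b chr17:34956436-34959238. Their coding parts were identical at 1915 of 1926 aligned positions (99.4%), whereas the parts after the coding part were identical at 47.3% of aligned positions and the last 300 bases at 50.1%. The library primer carried a stretch of T, per the labels' protocols. A value such as 25.5 UMIs shows that some molecules were divided between features, and how the counting did so for these copies was not tested. The 250 bases before the start of each gene are shown because they hold the heat shock element and were nearly the same in both copies. Hsph1, an HSP110 gene whose RNA was abundant in positive and negative cells alike, is shown for comparison. The windows are from RefSeq on GRCm38.p6, read 5′ to 3′ on the minus strand, and capitals mark each match to GAANNTTC or TTCNNGAA, 2 facing copies of the element:
Hspa1a, chr17:34972157-34972406: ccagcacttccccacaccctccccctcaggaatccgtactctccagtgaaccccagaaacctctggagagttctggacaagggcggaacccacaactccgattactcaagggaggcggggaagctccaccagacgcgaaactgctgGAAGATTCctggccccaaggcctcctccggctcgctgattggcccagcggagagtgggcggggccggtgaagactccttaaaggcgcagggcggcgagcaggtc
Hspa1b, chr17:34959239-34959488: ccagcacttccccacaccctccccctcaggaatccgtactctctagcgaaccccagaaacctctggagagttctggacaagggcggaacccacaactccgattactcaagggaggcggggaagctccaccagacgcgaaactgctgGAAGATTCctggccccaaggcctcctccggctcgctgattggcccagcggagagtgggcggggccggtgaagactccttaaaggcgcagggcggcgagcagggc
Hsph1, chr5:149636337-149636586: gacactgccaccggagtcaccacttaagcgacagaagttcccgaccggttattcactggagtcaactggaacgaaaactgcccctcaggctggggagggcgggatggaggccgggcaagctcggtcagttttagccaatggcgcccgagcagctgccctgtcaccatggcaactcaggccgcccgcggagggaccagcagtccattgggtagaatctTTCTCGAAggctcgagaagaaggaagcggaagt

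The Hspa1a and Hspa1b windows were identical at 247 of 250 bases (98.8%), with the substitutions C44T, T47C and T249G from Hspa1a to Hspa1b, counted from 1 at the 5′ end of the window. Each held 1 match, whose last base lay 97 bases before the start. The Hsph1 window held 1 match, whose last base lay 26 bases before the start. Both motifs read the same on either strand. A match stood in 3932 of 27025 genes with such a window (14.5%) and in 9 of 23 genes of the heat shock chaperone list with one (39.1%). A match is a description of these letters and not a measured site.

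The UMI counts of Hspa1a and Hspa1b, which chose the sets, are described here. The cut at 7 UMIs used below was set after the values were seen. All negative cells were at 0. Of the 21 positive cells, 14 held between 7 and 137.66 UMIs of the pair and 7 held between 1 and 2.5, and no cell lay between 2.5 and 7. Of the 7 low cells, 6 were at 1 UMI, just inside the rule, and no cell lay between 0 and 1. The 14 cells with 7 or more UMIs held 98.9% of all UMIs of the pair, and the top 3 cells alone held 50.6%. In CPM (UMIs scaled to 1000000 per cell), the positive cells had a lowest value of 29.01, a median of 839 and a highest value of 5982. The 14 high cells had a lowest value of 57.3, a median of 2162 and a highest value of 5982. A count of 0 allows up to 3 UMIs, which is 101.97 CPM at the median depth of the negative cells and 545 CPM in the shallowest of them. Of the 14 high cells, 13 were above 101.97 CPM, and the limit was under the median of the high cells in every negative cell. The value of 101.97 CPM lay within the range of the low cells, 29.01 to 113.2 CPM. Low and negative cells are therefore not clearly apart.

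Individual positive cells differed in how much of the pair they held and in which copy. The cell labelled C1498_45deg_5h_2 had the highest level, 5982 CPM from 111.5 UMIs of Hspa1a and 0.5 of Hspa1b among 18723 UMIs, followed by C1498_45deg_5h_214 with 4753 CPM from 137.66 UMIs among 28961. Next, C1498_45deg_5h_99 had 3549 CPM from 49 UMIs, C1498_45deg_5h_52 had 3505 CPM from 127.5 UMIs, and C1498_45deg_5h_97 had 3446 CPM from 38 UMIs among 11028. These 5 cells differed by under 2-fold from each other. Of the other 9 high cells, 5 lay between 1308 and 2456 CPM and 3 at 839, 739 and 361 CPM. The remaining one, C1498_45deg_5h_121, was the deepest of all 5 h cells with 122196 UMIs, and had 7 UMIs of the pair and 57.3 CPM. The 7 low cells lay between 29.01 and 113.2 CPM, so their range overlapped that of the high cells only through this deepest cell.

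Most high cells used mainly 1 copy. In 8 of the 14 high cells at least 90% of the pair's UMIs were assigned to Hspa1a, among them C1498_45deg_5h_52 with 127.5 UMIs of Hspa1a and 0 of Hspa1b. In 3 others at least 80% were assigned to Hspa1b: C1498_45deg_5h_119 with 60 UMIs of Hspa1b and 0 of Hspa1a, the deepest cell with 7 and 0, and C1498_45deg_5h_75 with 9.5 and 1.5. The remaining 3 were outside both cuts, with 120.33 UMIs of Hspa1a and 17.33 of Hspa1b in C1498_45deg_5h_214, 25.5 and 23.5 in C1498_45deg_5h_99, and 27.5 and 10.5 in C1498_45deg_5h_97. The cuts for the 2 copies differ, and the split depends on them. C1498_45deg_5h_214 was at 87.4% Hspa1a, which a cut of 80% would count as mainly Hspa1a, and C1498_45deg_5h_75 was at 86.4% Hspa1b. Either copy was thus found without the other in some cells. The neighbouring HSP70 gene Hspa1l was at 0 in all negative cells and above 0 in 1 positive cell, C1498_45deg_5h_214, at 11.4 CPM. Among the 28961 UMIs of that cell this is less than a whole UMI, a divided count. It does not show a molecule of Hspa1l.

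**Figure D1:**
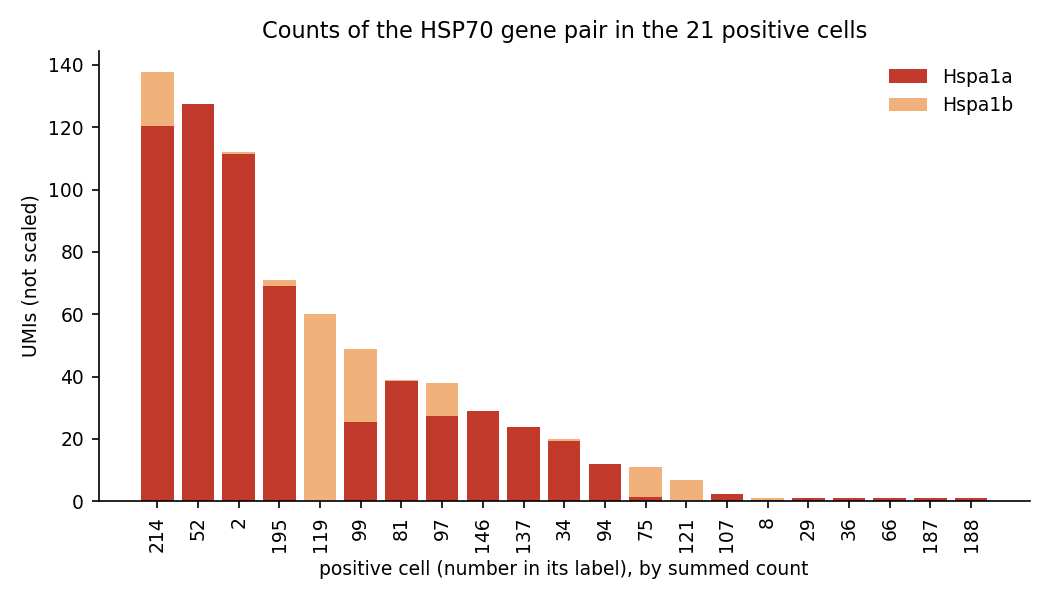
UMIs of Hspa1a (dark) and Hspa1b (light) stacked for each of the 21 positive cells, ordered by their sum, with the number in the cell's label on the horizontal axis. The 14 cells on the left hold 7 to 137.66 UMIs, the 7 on the right at most 2.5, and 3 of the high cells are mostly Hspa1b.

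The same rule found few cells in the other groups. At 10 h it found 3 of 47 heated cells (6.38%, exact Clopper-Pearson interval 1.34% to 17.5%), with 34, 5 and 3 UMIs of the pair. At 15 h it found 1 of 21, with 1 UMI, and at 1 h 0 of 13, which allows a share of up to 23.1%. No cell of the 37 °C groups was positive (0 of 45, which allows 6.67%). Before heating, 1 of 6 cells of the 45 °C arm rounded to 1 UMI, split as 0.5 and 0.5, the size of count that 6 of the 7 low cells at 5 h also had. The share at 5 h was 9.46% (5.95% to 14.1%), and its interval overlapped those at 10 h, at 15 h and at 1 h. Fewer molecules per cell and fewer captured molecules cannot be told apart here.

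Positive cells spread over the whole range of depth and were most frequent among the shallow cells. The 21 positive cells had 8829 UMIs at the lowest, 27058 at the median and 122196 at the highest, and the negative cells 5502, 29421 and 74648. The ranges overlapped, and the ratio of the medians was 0.920. Between 5000 and 20000 UMIs 20.9% of cells were positive (10.04% to 36.04%), against 4% (0.833% to 11.2%) between 20000 and 30000, 9.68% (3.63% to 19.9%) between 30000 and 40000 and 7.14% (1.498% to 19.5%) above. These bins were set after the values were seen, and neighbouring intervals overlap. Of the cells at or below the median depth, 12 were positive (10.8%, 5.71% to 18.1%), and of the deeper cells 9 (8.11%, 3.77% to 14.8%).

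When every cell was thinned to 5000 UMIs, 13 cells stayed positive (5.86%), and all 13 were among the 14 high cells. Positive cells had a median of 4580 detected genes and negative cells 4926. The ribosomal RNA gene Rn45s took a median of 13.96% of the UMIs in positive cells and 12.2% in negative cells. For the other genes, depth was looked at through ratios within shallow and within deep cells and through ratios with every cell thinned to 5000 UMIs. The deepest cell weighed on all sums, as it held 19.5% of the 625388 UMIs of the positive cells.

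**Figure D2:**
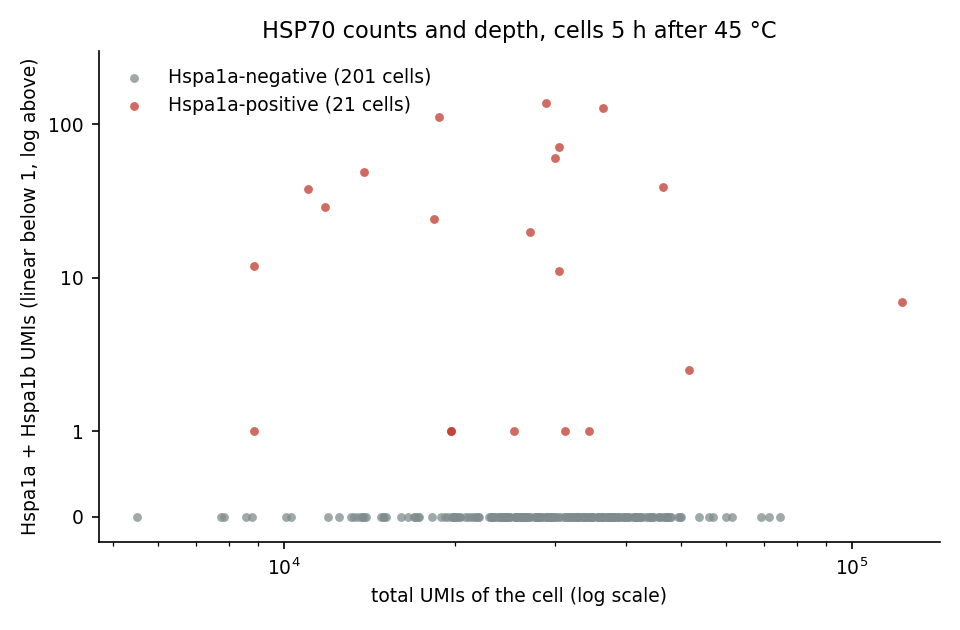
Summed Hspa1a and Hspa1b UMIs (vertical axis, linear below 1 and logarithmic above) against total UMIs (logarithmic horizontal axis) for each 5 h cell with at least 5000 UMIs; red points are positive and grey points negative cells. The red points spread over the same depths as the grey ones, and none lies between 2.5 and 7 UMIs.

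The label of the line was checked in the same cells. The leukocyte genes Ptprc and Coro1a were present in both sets, with Ptprc at 0, 250 and 652 CPM (lowest, median and highest) in positive and 0, 241 and 665 CPM in negative cells. Coro1a, an actin-binding gene of blood cells, was at 715 against 940 CPM from the sums, a log2 ratio of positive over negative cells of -0.39 (-0.54 to -0.26). Of the 5 measured leukocyte genes 4 had a ratio below 0, with a median of -0.28 that was 0.05 within the cells at or below the median depth. The 7 leukocyte genes summed to 340, 2497 and 3899 CPM in positive and 0, 2587 and 4506 CPM in negative cells. Of 14 T lineage genes 11 had values and 5 were measured, and 4 were at 0 in all positive cells and 1 in all negative cells. The 11 summed to 113.2, 587 and 997 CPM against 0, 519 and 1451 CPM, with Cd3e at a median of 207.2 and 207.1 CPM. Of the 5 measured, 3 had a ratio above 0 and 2 below, with a median of 0.04, from -0.35 for Lat to 1.85 for Cd3d. Cd3d was detected in 14.3% of positive and 13.4% of negative cells. Of 14 myeloid markers, 11 were at 0 in all positive cells and 9 in all negative cells, and the list had a median sum of 0 in both and a highest sum of 113.2 against 228 CPM. The cells thus carried RNA of some T lineage genes and little of the myeloid list, so these lists do not bear out a myeloid label. The origin of the line was not tested. Lists of NK, B, erythroid, platelet, stromal and endothelial genes also had median sums of 0 in positive, negative and control cells.

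For the other genes, the UMIs of each set were summed and the log2 ratio of positive over negative cells was taken on CPM of the summed counts after adding 0.5 UMI to each sum. Of 7258 genes with enough UMIs (20 in both sets together and 10 CPM in 1 of them), 2.66% were at least 2-fold higher in positive cells and 2.42% at least 2-fold lower. By the sign of the ratio alone, 50.5% were above 0 and 49.5% below. The median log2 ratio was 0.0037, and 90% of genes lay between -0.75 and 0.78. The interval of the ratio included 0 for 6405 of the 7258 genes. These shares are the background for each list's counts of positive over negative cells, and not for counts over the control.

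The heat shock chaperone list, without Hspa1a and Hspa1b, had more genes below 0 than above, by small amounts. Of its 30 genes 25 were measured, 7 with a ratio above 0 and 18 below, and 1 was at least 2-fold higher and 0 at least 2-fold lower. Its median log2 ratio was -0.05, and 0.05 within the cells at or below the median depth. Summed per cell, the list took 10305, 30848 and 38097 CPM (lowest, median and highest) in positive cells, 5389, 31090 and 59016 CPM in negative cells and 13160, 17515 and 19578 CPM in the 6 control cells. The sums of positive and negative cells overlapped, with 10 of 21 positive cells above the median of the negative cells. None of the 23 cells in the top 10% of all 5 h cells by this sum was positive, and 29 negative cells were above the highest positive cell. Relative to the control at 5 h, the median log2 ratio of the list was 0.66 in positive and 0.52 in negative cells. Over all measured genes the medians were -0.14 and -0.15. The values of the 2 sets share the control cells. The HSP70 and HSP110 list did not share this direction, with median log2 ratios over the control of -0.34 in positive and -0.19 in negative cells. Its members Hsph1 and Hspa4l were above the control in either set, and its other measured genes were not. Hspa9 is not in that list, and had medians of 725 CPM in positive, 600 CPM in negative and 491 CPM in control cells.

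Hsph1, an HSP110 protein that acts as an exchange factor for HSP70, had 340, 1682 and 3899 CPM in positive cells and 0, 1588 and 10510 CPM in negative cells. The control cells had 179.4, 361 and 465 CPM. Of the positive cells 95.2% (20 of 21), and of the negative cells 83.1%, were above the highest control cell, so Hsph1 was high in most cells of either set. From the sums it was at 1673 against 1855 CPM, a log2 ratio of -0.15 (-0.24 to -0.06). The sign of this small difference changed with depth, as it was 0.063 within the cells at or below the median depth and -0.26 within the deeper cells. Hspa8, the constitutive HSP70, had 793, 3065 and 5144 CPM in positive, 256, 3106 and 8503 CPM in negative and 2157, 3545 and 4181 CPM in control cells, and these ranges overlapped. From the sums Hspa8 was at 3051 and 3322 CPM, against 3524 CPM in the control cells. The log2 ratio of positive over negative cells was -0.12 (-0.19 to -0.05), and 0.12 within the cells at or below the median depth. Within the positive cells, Hspa8 and the summed CPM of the pair had a Spearman rho of 0.59 over 21 cells, in which both values share the denominator of the cell's total. This was the highest rho among the genes looked at cell by cell, and the lowest was -0.48 for Stip1. For the summed chaperone list rho was 0.18 over the 21 cells and 0.54 over the 14 high cells. These values use the counts that chose the sets and describe cells of 1 sample. They were not tested.

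Hspa4l, an HSP110 gene known for its role in the testis, was the 1 list member at least 2-fold higher. It had a UMI in 33.3% of positive and 32.8% of negative cells and was at 28.8 against 14.2 CPM (1.05, 0.20 to 1.76). Without the deepest cell the ratio was -0.15, so this call rested on 1 cell. Hspa4 (315 against 332 CPM, with 435 CPM in the control cells) and Hspa14 (log2 ratio -0.23) had ratios below 0.

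The HSP40 and exchange factor genes had 6 of 14 measured ratios above 0, a median of -0.03, and 1 gene at least 2-fold higher. Dnajb1, the HSP40 partner that delivers substrates to HSP70, had 0, 226.5 and 1567 CPM in positive, 0, 224 and 2740 CPM in negative and 30.8, 51.1 and 144.4 CPM in control cells. It was above the highest control cell in 66.7% of positive and 69.7% of negative cells. Bag3, an exchange factor that links HSP70 to autophagy, had 0, 203.7 and 802 CPM in positive, 0, 263 and 919 CPM in negative and 0, 17.8 and 64.6 CPM in control cells. Both genes thus overlapped between positive and negative cells over the whole range, with log2 ratios of -0.09 (-0.30 to 0.11) for Dnajb1 and -0.05 (-0.28 to 0.17) for Bag3. Dnajb2, an HSP40 found mainly in neurons, was the gene at least 2-fold higher, at 20.8 against 6.80 CPM (1.65, 0.59 to 2.54) from 13 and 42 UMIs. It had a UMI in 42.9% of positive and 17.9% of negative cells. Dnajb4 was at 68.8 against 39.5 CPM (0.81), but its ratio was -0.80 within the cells at or below the median depth.

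The HSP90 genes were the most abundant chaperones in both sets. Hsp90aa1, the inducible HSP90, had 2176, 5031 and 9288 CPM in positive, 638, 5310 and 13499 CPM in negative and 1048, 1490 and 2184 CPM in control cells. Of the positive cells 20 of 21 were above every control cell, as were 90.5% of the negative cells. From the sums Hsp90aa1 was at 4599 against 5260 CPM (-0.19, -0.25 to -0.14), -0.10 without the deepest cell and 0.070 within the cells at or below the median depth. The HSP90 and cochaperone list had 4 of 13 ratios above 0, a median of -0.03 and no gene at least 2-fold different. Its highest ratio was that of the cyclophilin Ppid (0.18) and its lowest that of the kinase cochaperone Cdc37 (-0.28). Hspb1, Cryab and Serpinh1, encoding small heat shock proteins and the collagen chaperone, were at 0 in all positive, negative and control cells, and of the 7 genes of that list 1, Hspb11, was measured.

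The mitochondrial chaperone and protease list had 6 of 10 ratios above 0 and a median of 0.18, which was -0.10 within the cells at or below the median depth. The chaperonin gene Hspd1 had 566, 3003 and 4939 CPM in positive and 390, 3260 and 6149 CPM in negative cells, and its cofactor Hspe1 1359, 2637 and 4156 CPM against 0, 2620 and 7402 CPM. Both were above their control medians of 1602 and 1188 CPM in most cells of either set. Lonp1, the protease of the mitochondrial matrix, had 98.3, 200 and 453 CPM in positive and 0, 148.1 and 502 CPM in negative cells, with 16 of 21 positive cells above the negative median. From the sums it was at 256 against 162.3 CPM (0.66, 0.41 to 0.90) and stayed above 0 with any single positive cell left out (0.49 to 0.71), and was at 0.18 with every cell thinned to 5000 UMIs. Hspa9, the mitochondrial HSP70, was at 815 against 662 CPM (0.30, 0.17 to 0.43), but at 0.048 without the deepest cell and -0.10 within the cells at or below the median depth.

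The heat shock factor genes did not set the positive cells apart at this depth. Hsf1 was at 35.2 against 35.8 CPM (0.01, -0.73 to 0.61) and had a UMI in 47.6% of positive and 65.2% of negative cells. Hsf2 was at 19.2 against 16.3 CPM (0.28, -0.77 to 1.10). RNA of these genes does not show the activity of the proteins, which was not measured. Of the other lists of protein quality control, 6 of 14 chaperonin and prefoldin genes, 5 of 19 ER unfolded protein response genes and 9 of 18 integrated stress response genes had ratios above 0, with medians of -0.04, -0.14 and -0.02. None of these genes was at least 2-fold different. The proteasome list was mostly below 0, with 24 of 31 genes lower and a median of -0.08. Its summed level was 1812, 7103 and 8894 CPM in positive and 958, 7641 and 10487 CPM in negative cells, with 7 of 21 positive cells above the negative median.

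**Figure D3:**
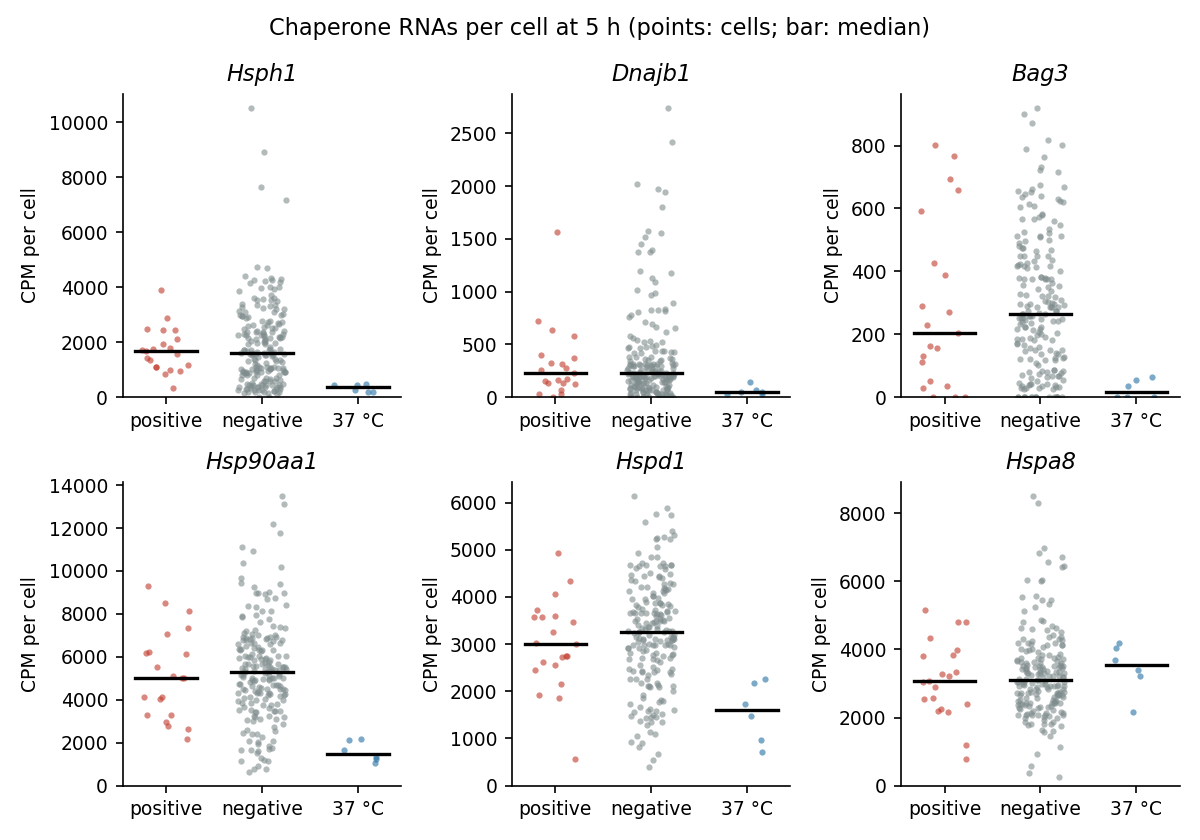
CPM per cell (linear axis from 0) of 6 chaperone genes in the 21 positive, the negative and 6 control (37 °C) cells at 5 h; each point is 1 cell and the black bar is the median. Positive and negative cells overlap in each panel, and for Hsph1, Dnajb1, Bag3, Hsp90aa1 and Hspd1 both medians lie above that of the control cells.

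Most genes of the G2 and M phase list had ratios below 0. Of 36 genes, 31 had a ratio below 0 and 5 above, with a median of -0.24, beside 49.5% of all genes below 0. Their summed level was 1199, 2539 and 5343 CPM in positive, 430, 3507 and 8225 CPM in negative and 2491, 4111 and 7411 CPM in control cells. The sets overlapped, but 7 of 21 positive cells were above the negative median, and the median sum was 1722 CPM in the 14 high cells and 2903 CPM in the 7 low cells. No gene of the list was at least 2-fold lower. The interval lay below 0 for 8 of the 36 genes and above 0 for 0, with median bounds of -0.67 and 0.20. All 36 genes were counted in the same cells, so their signs are not independent. The median was below 0 under each alternative tried: -0.66 within the cells at or below the median depth, -0.13 within the deeper cells, and between -0.32 and -0.18 with any single positive cell left out.

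The kinase gene Cdk1, which drives entry into mitosis, had 0, 32.8 and 128.3 CPM in positive and 0, 75.2 and 597 CPM in negative cells. It was detected in 57.1% of positive and 80.6% of negative cells and was at 54.4 against 98.1 CPM from the sums (-0.83, -1.39 to -0.35). Its cyclin partner Ccnb1 had 0, 0 and 220 CPM against 0, 41.95 and 684 CPM, and was at 49.6 against 97.7 CPM (-0.96, -1.55 to -0.46), the lowest ratio of the list. The most abundant members, Top2a and Mki67, were at 320 against 390 CPM (-0.28) and 200 against 240 CPM (-0.26). Ttk, a spindle checkpoint kinase, had the highest ratio (0.71, -0.22 to 1.47). Genes of S phase did not share the direction, with 17 of 35 above 0 and a median of -0.03. Nasp, a histone chaperone gene, was the highest of them, with 21.5, 184.8 and 356 CPM in positive and 0, 113.5 and 782 CPM in negative cells (0.52, 0.22 to 0.79). Of the clustered histone genes 6 of 44 were measured, 5 of them above 0, with a median of 0.39 that was -0.04 within the deeper cells and 0.74 within the others.

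Some abundant gene groups differed by small amounts. Of 77 cytosolic ribosomal protein genes, 66 had a ratio above 0, with a median of 0.06 and 34 intervals above 0, against 1 below. The list took 151689, 217261 and 282886 CPM in positive and 28147, 213836 and 288370 CPM in negative cells, and its median was -0.04 within the cells at or below the median depth. Ribosome biogenesis genes had 23 of 30 ratios above 0 and a median of 0.09, which was 0.02 within the cells at or below the median depth. The hosts of small nucleolar RNAs and nuclear noncoding RNAs had 9 of 12 above 0 and a median of 0.11, and 16 of 21 positive cells were above the negative median of their sum. Gas5, a noncoding host RNA, had 374, 680 and 1248 CPM in positive and 95.1, 512 and 1203 CPM in negative cells (0.48, 0.33 to 0.62; 0.33 without the deepest cell). Zfas1, another host, was at 317 against 205.8 CPM (0.62, 0.40 to 0.84), and Malat1 was at 851 against 840 CPM (0.02).

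Actin cytoskeleton, glycolysis and immediate early genes were mostly below 0. Of 23 actin cytoskeleton genes 19 were lower, with a median of -0.22 that was -0.02 within the cells at or below the median depth. The most abundant, Actb, had 1057, 7748 and 12828 CPM in positive and 243, 8665 and 17352 CPM in negative cells (-0.28), and Actg1 had 262, 1376 and 2888 CPM against 0, 1738 and 4558 CPM (-0.55). The thymosin gene Tmsb10 went the other way (0.38). Of 15 glycolysis genes 13 were lower, with a median of -0.15, while the abundant members Gapdh and Ldha were at 0.02 and 0.03. Of 11 measured immediate early genes 9 were lower, with a median of -0.34 and 1 gene at least 2-fold lower. This was Egr1, a growth factor response gene, with 2 UMIs in the positive cells (3.20 against 16.8 CPM). The nuclear-encoded respiratory chain list lay at the background, with 17 of 36 above 0 and a median of -0.002. The remaining lists had 5 of 9 p53 targets, 10 of 16 apoptosis regulators, 9 of 17 oxidative and metal stress genes, 9 of 19 autophagy and lysosome genes, 9 of 17 cholesterol synthesis genes and 9 of 19 SR protein and CLK kinase genes above 0, with medians between -0.02 and 0.14. Of the smaller ones, 2 of 4 NF-kB and cytokine genes, 2 of 5 polymerase III short RNAs and 1 of 4 interferon response genes were above 0, with medians of 0.08, -0.21 and -0.57.

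**Figure D4:**
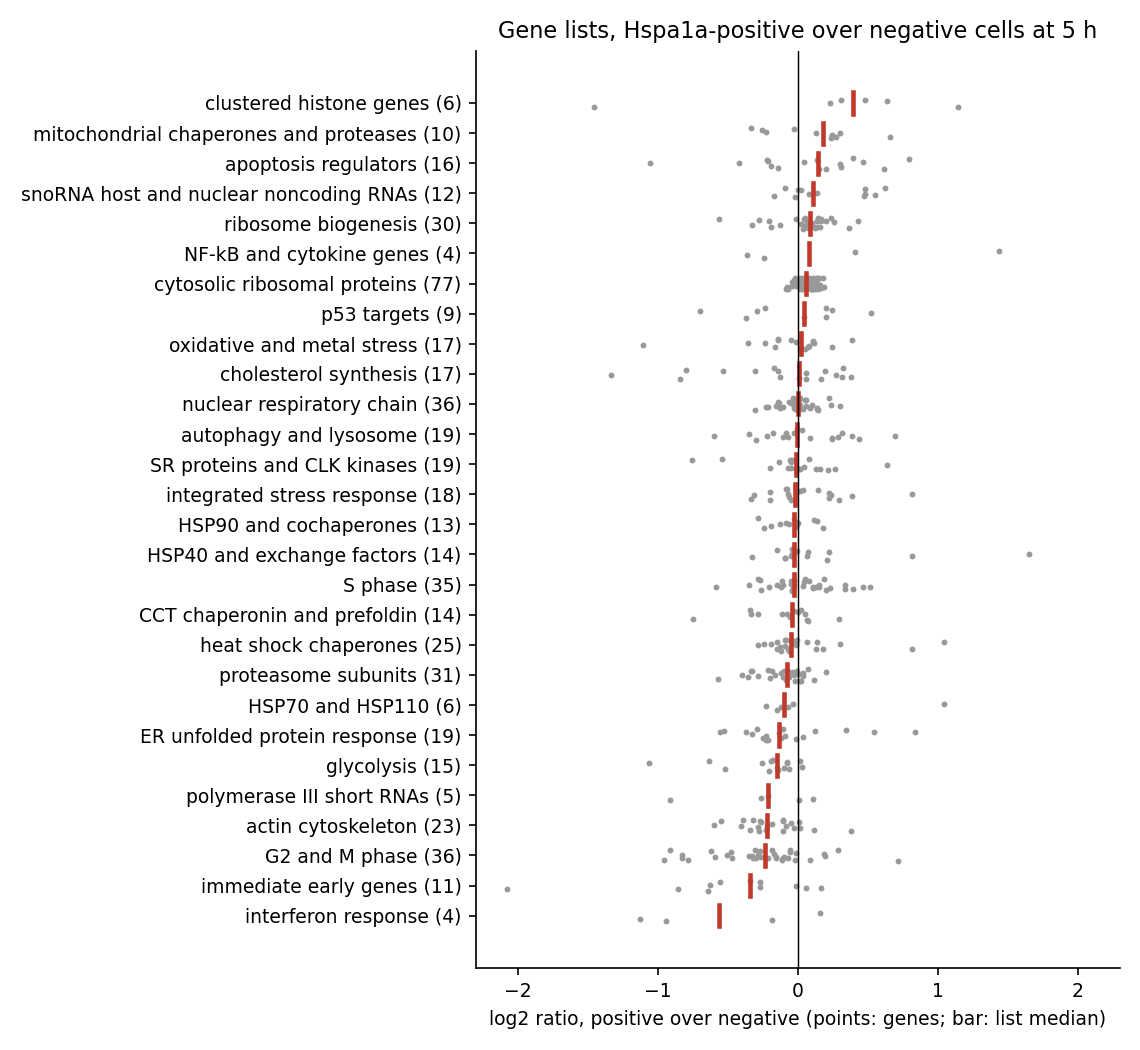
Log2 ratio of positive over negative cells for each measured gene (grey points) of the reported lists with 4 or more measured genes, ordered by the list median (red bar); the number of measured genes is in brackets. The medians of the heat shock chaperone list and of the separate HSP70, HSP40, HSP90 and mitochondrial chaperone lists lie between -0.10 and 0.18. The G2 and M phase list has 31 of 36 points below 0.

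Single genes with the most even shift between the sets were ranked by the share of all pairs of 1 positive and 1 negative cell in which the positive cell had the higher CPM. Over all genes this share had a median of 48.3%, and 5% of genes lay above 58.7%. Since 535 genes were candidates on the higher side and 751 on the lower side and the top of each was taken, these are extremes of a ranking and not tested differences. On the higher side the first was Arpp19, an inhibitor of the phosphatase PP2A in mitosis, at 70.2% of pairs, with 108.97, 321 and 473 CPM in positive and 0, 227 and 680 CPM in negative cells. Its log2 ratio was 0.29 from the sums (0.05 to 0.51) and turned to -0.29 with every cell thinned to 5000 UMIs. Gas5 followed with 70.01%, then Trp53bp1, a DNA break repair factor, with 69.6% (67.2 against 38.8 CPM). Rp9, Nasp, Lonp1, the host RNA Snhg9, the chromatin reader Brd1, the tRNA methylase relative Trmt1l, the lysosomal gene Lmbrd1, the complex III subunit Uqcr10 and the mitochondrial ribosome gene Mrps18a came next, with shares down to 66.9%. Uqcr10 also turned in thinned cells, from 0.29 to -0.28. Snhg9 was at 363 against 194.5 CPM (0.90, 0.69 to 1.11), which was 0.49 without the deepest cell.

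On the lower side the first was Ndufv3, a subunit of respiratory complex I, with the positive cell higher in 27.96% of pairs. It had 50.9, 224.5 and 393 CPM in positive and 26.3, 303 and 904 CPM in negative cells (-0.51, -0.78 to -0.27). Anxa6, a membrane-binding annexin, followed with 28.8% (84.7 against 147.1 CPM), then the proteasome subunit Psmb6 with 29.2% (187.1 against 248 CPM). Ftsj3, a ribosome biogenesis factor, the efflux pump gene Abcb1b, the acyl-CoA binding protein gene Dbi, the complex I subunit Ndufs6, Cdk1, the galectin gene Lgals1, the splicing gene Smu1, the Mediator subunit Med30 and the gamma-secretase subunit Psenen followed, with shares up to 30.4%. Smu1 turned from -0.56 to 0.28 in thinned cells. Lgals1 was the most abundant, with 394, 1048 and 1863 CPM in positive and 63.9, 1517 and 4670 CPM in negative cells (-0.56, -0.67 to -0.44; -0.42 without the deepest cell). For each of these genes the ranges of the sets overlapped.

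**Figure D5:**
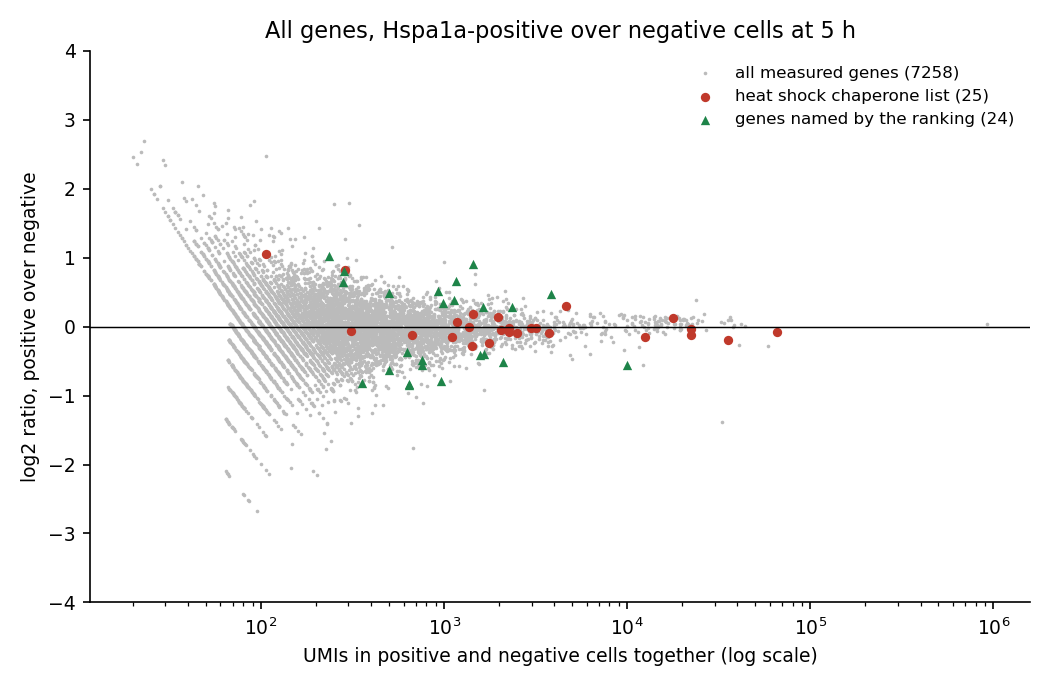
Log2 ratio of positive over negative cells against the UMIs of both sets together (logarithmic axis) for the 7258 measured genes (grey), the 25 measured heat shock chaperones (red) and the 24 genes named by the ranking (green triangles). The chaperones lie within the spread of other genes with as many UMIs, and the spread widens toward few UMIs.

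The 3 positive cells at 10 h were set beside the 44 negative cells of that time. The chaperone list summed to 19487, 23054 and 32201 CPM in the positive and 4776, 25328 and 41463 CPM in the negative cells, so all 3 lay within the negative range. The cell that held the most of the pair (1419 CPM) had 1628 CPM of Hsph1 and 6991 CPM of Hsp90aa1, above the negative medians of 928 and 3888 CPM. The others had 996 and 749 CPM of Hsph1 and 4605 and 3169 CPM of Hsp90aa1. For Hspa8 the first cell was at 4132 CPM, above the negative median of 2876 CPM, and the others at 1805 and 1697 CPM, below it. With Dnajb1 at 104.3, 124.4 and 99.8 CPM, all 3 were above the negative median of 65.05 CPM and under the highest negative cell, 535 CPM.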

How the data were processed

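The deposited table holds estimated counts of UMIs per gene and cell, made by the authors, with 5.30% of values above 0 not whole (no tolerance). Per the submitters' processing notes, STAR and mm10 were used. Which program counted molecules, and on which annotation, was not given in the sources used here. Spike-in and mitochondrially encoded genes were not analysed here. The members and gene lists were chosen with earlier results of these data known. Values were summed per set and rounded to whole counts, CPM was taken over all UMIs of the set, and log2 ratios had 0.5 UMI added per sum. Ratio intervals are exact conditional binomial and shares exact Clopper-Pearson (95%, scipy 1.17.1), for counting error only. No test was made, as each set is 1 sample. Each cell's total is its depth, 5502 to 122196 UMIs. Named genes had at least 50 CPM and a UMI in 50% of cells of the higher set, and 1 direction in summed, per-cell, shallow and deep ratios and with any positive cell left out. Up to 12 per direction were named by pair share, without predicted and ribosomal protein genes. From each list the highest, the lowest and the 2 most abundant members, and any chaperone, could be named. 1 gene list is not reported here. No 2 cells had identical counts. The ratio script was tested on simulated data.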

Additional observations from a re-analysis of the deposited data

Results flagged for a closer look

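The cell labelled C1498_45deg_5h_140 lay outside the comparison because it held 3443 UMIs, under the minimum of 5000. It held 26 UMIs of Hspa1a and Hspa1b together (25.5 and 0.5), or 7552 CPM, above the highest positive cell (5982 CPM) and above the control cells at 5 h, which were at 0. Its Hsph1 level was 1452 CPM and its Dnajb1 level 1162 CPM, inside the ranges of the positive cells. Bag3 at 871 CPM, Hsp90aa1 at 11037 CPM and Hsp90ab1 at 17427 CPM were above the highest positive cell (802, 9288 and 13597 CPM).

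In the 37 °C cells at 5 h, Dnajb1 was at 144.4 CPM in cell 4, far from the other control cells, whose median with it was 51.1 CPM. In the 45 °C arm before heating, cell 4 was at 47.3 CPM of the pair while the other 5 cells were at 0, and this value is 0.5 UMI of each copy. Chance flags about 1 in 20 groups in this way, and 8 groups were looked at. All 3 values were not tested further.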

How the results depend on the processing

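No paired analysis was possible because each sample is 1 cell and no test was made. The median depth ratio (0.762 to 0.989) and the chaperone list median (-0.07 to 0.05) stayed within the ranges set for them under every alternative run. For the depth ratio this range was 0.624 to 1.06, from the ordered depths of the 21 positive cells. For the list it was -0.23 to 0.16, the medians of the genes' lower and upper bounds. Neither is a counting interval of the value itself. The share of positive cells was 5.86% after thinning to 5000 UMIs. Counts of genes past 2-fold moved most. Most of these settings hold fewer positive cells or UMIs, and the cause was not tested. Shallow and deep cells are those at or below, and above, the median depth. Genes at least 2-fold higher were 311 with a rounded count of 2, 327 with positives set after thinning, 400 and 315 within shallow and deep cells, 318 in thinned cells, 2371 without the filter, 7 with 200 UMIs, and 322 with a count of 7 and lower counts left out, chosen after seeing the data. Genes at least 2-fold lower were 335 with positives set after thinning, 292 from per-cell means, 589 and 297 within shallow and deep cells, 488 in thinned cells, 699 without the filter, 31 with 200 UMIs, and 320 with a count of 7. Leaving out any 1 positive cell kept both counts within 1.5 times; without the deepest cell, 66.8% of the genes called higher and 69.3% of those called lower remained.

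Of 1295 values of named genes, 12 changed sign in a gene whose counting interval excluded 0. Sign changes of genes whose interval included 0, such as Dnajb1 and Bag3, were not counted. Within the shallow cells it did so for Hsph1 (0.063), Hspa8 (0.12), Hspa9 (-0.10), Dnajb4 (-0.80), Hsp90aa1 (0.070) and Hsp90ab1 (0.050). Hspa8 was at 0.039 with positives set after thinning, and Hspa4l at -0.10 with Hspa1a alone and between -0.15 and 1.17 with any 1 positive cell left out, lowest without the deepest cell. In thinned cells Arpp19 was at -0.29, Uqcr10 at -0.28 and Smu1 at 0.28. List medians are small, and 6 of the 30 reported lists other than cell type markers kept the sign of their median under every alternative run: immediate early, proteasome, G2 and M phase, host and nuclear noncoding RNA, glycolysis and actin cytoskeleton genes. Depth limits genes with few UMIs: a 0 in the positive cells together allows 3 UMIs.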

Other observations

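Lrrc17 had a low ratio from the sums, and it was chosen here after its values were seen. Lrrc17, a leucine-rich repeat gene, had 0, 319 and 8798 CPM (lowest, median and highest) in positive and 0, 646 and 34808 CPM in negative cells. It was detected in 76.2% of positive and 91.5% of negative cells, and 7 of 21 positive cells were above the negative median. From the sums it was at 1965 against 5146 CPM, a log2 ratio of -1.39 (-1.47 to -1.31), between -1.79 and -1.28 with any single positive cell left out, and -2.02 within the cells at or below the median depth and -1.20 within the deeper cells.

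Nfkbia, the inhibitor of NF-kB, was also chosen after its values were seen. It was detected in 57.1% of positive and 30.3% of negative cells, at 47.97 against 17.96 CPM (1.43, 0.78 to 2.01), and its ratio lay between 1.33 and 1.52 with any single positive cell left out. Cd28, a costimulatory receptor gene of T cells, was detected in 52.4% against 38.8% of cells, at 102.3 against 29.9 CPM (1.78), and at 0.97 to 1.88 with single cells left out.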
